A study of Homo sapiens with 8 samples.

Results

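Kasumi-1 cells, a human line established from an acute myeloid leukaemia, received an siRNA (siRE) that targets the RUNX1/ETO fusion transcript, and are followed here over time inside that treatment. The part of the data chosen is every array whose title names siRE, which gives 4 of the 8 arrays of the series, 1 each at days 2, 4, 7 and 10 (48, 96, 168 and 240 h). The cells were electroporated with 200 nM of siRE, and the 4 arrays followed 1, 1, 2 and 3 electroporations. The other 4 arrays hold cells given 200 nM of a mismatch siRNA (siMM) at the same times and after the same numbers of electroporations. Values within siRE are given without subtracting siMM. The siMM values stand beside them for many genes, and for the others siRE is given alone. Only the closing comparison of slopes tests the arms against each other. No time has a replicate. Separate cultures for the different times are not stated by the labels, so each p-value measures only the scatter of single arrays about a line. The number of electroporations was the same at days 2 and 4 and then rose with day, and from day 4 on the parts of day and number in a change cannot be told apart.

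RUNX1/ETO is the product of the t(8;21) translocation, which joins the DNA-binding part of the haematopoietic transcription factor RUNX1 to the corepressor ETO, encoded by RUNX1T1. The fusion protein is known for repressing genes of myeloid maturation and for maintaining the progenitor state of leukaemic blasts. Granulocytic maturation normally proceeds through the production of granule proteases and antimicrobial proteins, then calprotectin and Fc receptor genes, while progenitor surface genes and the cell cycle decline.

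Values are the authors' normalized array values on a log scale, read here as log2, and were taken from 1 probe per gene. The sources used here do not say whether they are plain log2 or variance-stabilised values, so differences are stated on that scale and not as folds. A background cut-off of 5.90 was set from the values themselves. Of 47230 probes, 14707 exceeded it on at least 2 of the 8 arrays and were tested, standing for 8866 named genes. Of 11 defining genes of a Kasumi-1 blast on the array, 10 exceeded the cut-off on some siRE array and 9 on all 4, while PTPRC (CD45) was below it on all of them. The differences between neighbouring arrays had an SD of 0.40, 0.35 and 0.40 across probes for days 2 to 4, 4 to 7 and 7 to 10 in siRE, against 0.35, 0.28 and 0.32 in siMM. In a mixed culture, fewer cells of a kind and less RNA per cell cannot be told apart from such values.

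The siRNA target was checked first. RUNX1T1 at its brightest probe (ILMN_1812795, chromosome 8) read 7.52, 7.81, 7.43 and 7.18 in siRE at days 2, 4, 7 and 10, against 8.86, 9.23, 8.72 and 8.65 in siMM. Every siRE value lay below every siMM value. Within siRE the slope of RUNX1T1 was -0.06 per day (SE 0.04), which did not pass (limma adjusted p = 0.462). RUNX1 (ILMN_1801504, chromosome 21) read 8.35, 8.01, 8.08 and 8.14 in siRE, with a slope of -0.02 per day (SE 0.04, limma adjusted p = 0.859). Neither transcript passed the test for a change over day after the first array. A second RUNX1T1 probe (ILMN_1724669) passed the filter with a slope of 0.05 per day (limma adjusted p = 0.566). Near the background, it read 5.38, 6.08, 5.73 and 5.99 in siRE, against 5.33, 5.73, 5.59 and 5.40 in siMM. It was thus not lower in siRE at any time. The filter was not passed by 3 further RUNX1T1 and 2 further RUNX1 probes. The sources used here do not place the probes on the normal or the fusion transcript.

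The main question was which transcripts rose or fell with day inside the siRE arm. In a linear fit of value on day over the 4 arrays (limma, 2 residual degrees of freedom beside a prior of 15.4), 145 probes rose, 0.986% of those tested, and 150 fell, 1.02%, at an adjusted p under 0.05. At an unadjusted p under 0.05 there were 2695. After cyclic loess normalization of the 4 arrays the split was 159 rising and 81 falling, so the share of falls depends on the scaling. Counted as genes, 89 rose (1% of 8866) and 101 fell (1.14%). The same fit in the 4 siMM arrays called 0 probes (0%), with 334 at an unadjusted p under 0.05 by the same tool. In siRE 81 of the 89 risers rose at every step and 68 of the 101 fallers fell at every step, while 25 fallers first went up between days 2 and 4.

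The risers gained a median of 1.80 on the log2 scale between day 2 and day 10 (range 1.09 to 4.57). Their largest step was the first for 43 genes, the middle one for 33 and the last for 13. The fallers changed by a median of -1.46 (range -3.02 to -1.08), and their largest step was the first for 21 genes, against 40 for each later step. The first interval was shorter in days than each later one, and steps were not scaled for that, which favours the later steps in these counts. The median siMM slope of the same genes was 0.01 per day for the risers and -0.00174 for the fallers. At day 10, 70 of the 101 fallers were below the background cut-off, and 18 of the 89 risers were below it at day 2, so these changes include values below the background. For some of the affected named genes the change counted from or to the cut-off is given as the bound. For the others the values alone are given, and those below 5.90 are below the background.

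Of the 12 steepest risers, 4 are in the granule protein list, 3 in the mature myeloid list, 1 among the T and NK markers and 4 in no list. The 2 steepest risers and the 2 steepest fallers with a single entry in the RefSeq promoter table are shown here as the 250 bases before the transcription start on the gene's strand (GRCh38.p14). Steeper genes without a single entry were passed over. They are FCER1G at chr1:161215045-161215294 (+ strand), S100A9 at chr1:153357604-153357853 (+ strand), FAM171A1 at chr10:15371290-15371539 (- strand) and CD34 at chr1:207911126-207911375 (- strand). Capitals mark matches on either strand to the letters TGTGGT (a RUNX site), TTGCNNAA (C/EBP), GAGGAA (PU.1) and CACGTG (an E-box). No matches overlap in these windows.
FCER1G: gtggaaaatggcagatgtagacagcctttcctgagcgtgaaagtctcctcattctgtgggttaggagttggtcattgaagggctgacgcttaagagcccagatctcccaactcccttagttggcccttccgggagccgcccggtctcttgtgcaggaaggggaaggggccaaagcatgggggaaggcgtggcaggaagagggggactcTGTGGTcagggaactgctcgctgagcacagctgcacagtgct
S100A9: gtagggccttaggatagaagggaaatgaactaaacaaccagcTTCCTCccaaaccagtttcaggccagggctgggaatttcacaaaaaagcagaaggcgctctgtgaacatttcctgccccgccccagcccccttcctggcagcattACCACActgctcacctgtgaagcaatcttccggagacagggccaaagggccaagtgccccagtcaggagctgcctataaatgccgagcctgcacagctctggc
FAM171A1: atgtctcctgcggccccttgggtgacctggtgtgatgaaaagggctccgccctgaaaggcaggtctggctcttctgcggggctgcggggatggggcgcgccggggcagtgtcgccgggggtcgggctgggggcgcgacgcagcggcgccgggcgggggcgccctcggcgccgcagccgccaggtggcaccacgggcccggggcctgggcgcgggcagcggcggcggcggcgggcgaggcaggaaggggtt
CD34: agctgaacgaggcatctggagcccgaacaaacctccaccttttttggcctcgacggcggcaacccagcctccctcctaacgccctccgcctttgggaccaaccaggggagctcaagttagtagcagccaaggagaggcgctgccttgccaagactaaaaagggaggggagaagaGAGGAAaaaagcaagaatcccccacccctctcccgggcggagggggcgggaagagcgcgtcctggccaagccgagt

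The FCER1G window holds 1 RUNX match, 42 bases before the start, and that of S100A9 holds 1 RUNX and 1 PU.1 match. The CD34 window holds 1 PU.1 match and that of FAM171A1 none of the 4 motifs. Among 72 genes that rose and have an entry, 15.3% hold TGTGGT, 9.72% TTGCNNAA, 34.7% GAGGAA and 5.56% CACGTG in this window. Among 72 that fell the shares were 6.94%, 4.17%, 27.8% and 16.7%. Over all 27305 genes with an entry they were 10.9%, 9.13%, 23.4% and 6.49%. These are matches of letters and not measured binding.

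**Figure D1:**
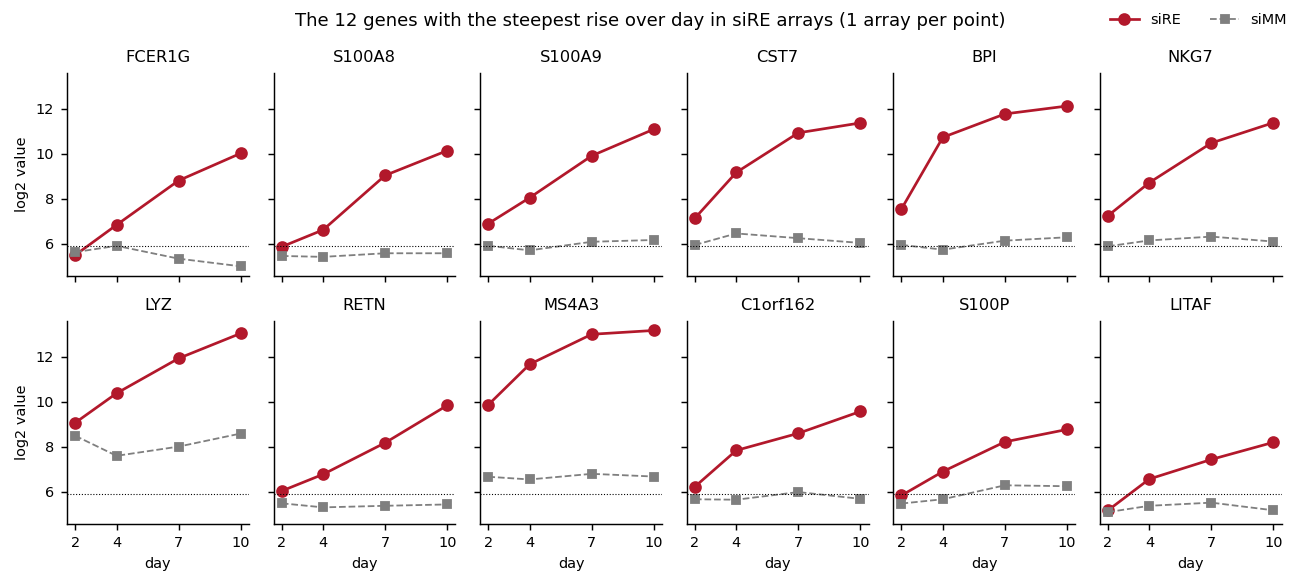
Normalized log2 values (vertical axis) by day (horizontal axis) for the 12 genes with the steepest rise in siRE: red circles are the siRE arrays, grey squares the siMM arrays, 1 array per point, and the dotted line is the background cut-off of 5.90. Each of the 12 siRE lines goes up at each step, BPI and MS4A3 flatten after day 7, and RETN has its largest step last.

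FCER1G, the gamma chain shared by activating Fc receptors, read 5.50, 6.84, 8.81 and 10.02 in siRE at days 2, 4, 7 and 10, against 5.63, 5.91, 5.34 and 5.0 in siMM. It was below the cut-off on the first siRE array and rose by at least 4.12 from there, with a slope of 0.57 per day (SE 0.04, limma adjusted p = 6.8e-07). At day 2 both arms were below the cut-off, and in siMM the highest value was 5.91.

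S100A8 and S100A9, the subunits of calprotectin, which makes up much of the cytosolic protein of neutrophils, followed the same course. S100A8 read 5.87, 6.62, 9.04 and 10.14 in siRE, against 5.46, 5.42, 5.58 and 5.58 in siMM. S100A9 read 6.90, 8.05, 9.91 and 11.09 in siRE, against 5.91, 5.71, 6.09 and 6.17 in siMM. Both took their largest step between days 4 and 7 (2.43 and 1.86), and their slopes were 0.57 and 0.53 per day (limma adjusted p = 8.31e-07 and 7e-07). S100P, a related calcium-binding protein, had a slope of 0.37 (limma adjusted p = 8.39e-05).

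BPI, the bactericidal protein of azurophil granules, took most of its rise early. It read 7.55, 10.73, 11.77 and 12.12 in siRE, against 5.95, 5.74, 6.14 and 6.29 in siMM, and its first step of 3.17 was larger than the other 2 steps together (1.04 and 0.35). CST7, encoding cystatin F, an inhibitor of granule and lysosomal cathepsins, read 7.14, 9.17, 10.93 and 11.37 in siRE, against 5.95, 6.46, 6.25 and 6.04 in siMM. MS4A3, a membrane protein of granulocyte-monocyte progenitors, read 9.87, 11.67, 13.00 and 13.17 in siRE, against 6.67, 6.55, 6.80 and 6.68 in siMM. These 3 genes slowed at the last step, to 0.35, 0.45 and 0.17. All 3 MS4A3 probes rose. The slopes of BPI, CST7 and MS4A3 were 0.52, 0.52 and 0.40 per day (limma adjusted p = 0.00135, 5.23e-05 and 0.000458). Under a prior that was robust and followed the intensity, BPI and MS4A3 lost their calls (adjusted p between 0.174 and 0.362), and with the number of electroporations in place of day BPI lost its call (adjusted p = 0.0725).

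LYZ and RETN kept rising to the end of the series. LYZ, lysozyme, read 9.07, 10.38, 11.93 and 13.04 in siRE, against 8.49, 7.60, 8.01 and 8.59 in siMM, with a slope of 0.49 per day (SE 0.04, limma adjusted p = 1.08e-06), and its second probe rose too. RETN, resistin, which human myeloid cells secrete, read 6.04, 6.78, 8.18 and 9.84 in siRE, against 5.49, 5.31, 5.38 and 5.44 in siMM. Its steps grew from one interval to the next, at 0.74, 1.40 and 1.67, and its slope was 0.48 (limma adjusted p = 1.08e-06). TYROBP, the DAP12 adaptor through which several activating myeloid receptors signal, read 7.35, 7.83, 9.07 and 10.13 in siRE, against 6.20, 6.25, 6.69 and 6.17 in siMM, and also rose most in the last 2 steps.

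NKG7, a granule membrane protein best known from NK and T cells, read 7.25, 8.72, 10.48 and 11.38 in siRE, against 5.89, 6.15, 6.32 and 6.10 in siMM. It was the only one of 4 tested T and NK cell markers to rise, and CD247, the T cell receptor zeta chain, fell with a slope of -0.21 per day (limma adjusted p = 0.0142). The summed linear level of the 15 T and NK markers on the array was 764, 990, 1977 and 3242 in siRE, against 683, 657, 632 and 669 in siMM, taking the values as plain log2. Without NKG7 it was 613, 568, 548 and 572 in siRE, against 623, 586, 552 and 600 in siMM, so the increase was that of NKG7. CD3D, CD3E, CD3G, GZMA, GZMB, PRF1 and GNLY were below the cut-off on all 4 siRE arrays. C1orf162 and LITAF, an endosomal membrane protein, completed the 12 steepest risers with slopes of 0.39 and 0.36. LITAF was below the cut-off at day 2, and counted from the cut-off it rose by 2.30 or more.

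Granule proteins as a list moved together. This and the other gene lists were chosen with earlier results of these data known, so their counts are no independent test. Of the list's 33 members on the array, 19 passed the filter and were tested. A gene can pass the filter through late siRE values alone, which favours risers among those tested. Of the 19 tested members, 12 rose and 0 fell, where 1% of all genes rose, and the median slope was 0.20 per day, against -0.00853 over all genes tested. Members that rose beyond those above, named after their values were seen, include AZU1 (azurocidin) with 11.36, 13.15, 13.74 and 13.84, SRGN (the proteoglycan serglycin, which packs granule proteases) with 11.17, 12.87, 13.95 and 14.12, CTSG (cathepsin G) with 12.33, 13.29, 14.11 and 13.91, and PRTN3 (proteinase 3) with 12.41, 13.22, 13.59 and 13.98. Also picked after their values were seen are MPO, LTF and CEACAM8. MPO, the myeloperoxidase gene, was at 14.06, 13.91, 14.02 and 14.16, near the top of the scale on every array, and did not pass. LTF, the specific-granule protein lactoferrin, was at 5.84, 5.71, 5.95 and 6.22, around the background. CEACAM8, another gene of later granulocytes, crossed the cut-off between days 4 and 7, with 4.72, 5.12, 6.23 and 6.63. The medians of the list's steps were 0.97, 0.71 and 0.17, against 0.28, 0.17 and -0.12 in siMM. Without the day 2 array 7 of the 19 rose.

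The mature myeloid surface and effector list had 47 genes on the array, and 29 passed the same filter. Of these 29 tested genes, 10 rose and 0 fell, where 1% of all genes rose and 1.14% fell, with a median slope of 0.07 per day. Beside FCER1G, TYROBP and calprotectin, they include CD24, a surface glycoprotein, with 8.21, 9.84, 10.66 and 10.88, and ALOX5AP, which presents arachidonate to 5-lipoxygenase, with 7.74, 9.42, 9.91 and 9.95. These, CSF3R and FCGR1A were named after their values were seen. CSF3R, the G-CSF receptor, went 10.28, 11.43, 11.58 and 11.51 and did not pass (limma adjusted p = 0.14). FCGR1A, the high-affinity IgG receptor, was at 6.28, 6.42, 6.32 and 5.85, without a rise. Without the day 2 array 6 rose.

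Among lysosomal genes, 4 of 32 rose and 0 fell, beside the same 1% and 1.14% of all genes, and the median slope was 0.06 per day. CST3, the cathepsin inhibitor cystatin C, read 8.87, 9.60, 9.85 and 10.97 in siRE, against 9.13, 9.13, 9.59 and 9.36 in siMM. The others were TPP1, a tripeptidyl peptidase, GRN, the progranulin gene, and NPC2, which carries cholesterol out of the lysosome, with slopes of 0.20, 0.20 and 0.18. Without the day 2 array, and without the day 10 array, 2 rose. Of 24 tested transcription factors of the myeloid lineage, 0 rose and 1 fell, shares near the 1% and 1.14% of all genes. Their median step from day 2 to day 4 was 0.30, against 0.35 in siMM, and 3 fell without the day 2 array. Of 3 named after their values were seen, CEBPA was at 9.61, 9.31, 9.19 and 9.36, SPI1 at 10.10, 10.63, 9.86 and 9.94, and CEBPE at 9.60, 9.51, 8.96 and 8.96. The 1 that fell was ID1, an inhibitor of helix-loop-helix factors (slope -0.20 per day, limma adjusted p = 0.0078). It read 6.53, 6.26, 5.51 and 5.0 in siRE, against 7.11, 6.97, 6.94 and 7.10 in siMM. In siRE it was below the cut-off from day 7, and with values set to the cut-off its slope was -0.08. Its call was lost without the day 10 array (limma adjusted p = 0.111).

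A microRNA locus was among the risers. The probe of MIR223 (ILMN_3308936, chromosome X), the gene of a microRNA abundant in granulocytes, was singled out after its values were seen. It read 6.02, 6.68, 7.60 and 8.19 in siRE, against 5.39, 5.72, 5.77 and 6.03 in siMM, with a slope of 0.27 per day (limma adjusted p = 0.000513). It stayed near or below the cut-off in siMM, and its slope difference between the arms did not pass (limma adjusted p = 0.166). The annotation ties the probe to the hairpin's RefSeq record, and mature microRNA was not measured. The mature products of the hairpin are shown from RefSeq, with the seed (bases 2 to 8) in capitals.
hsa-miR-223-3p: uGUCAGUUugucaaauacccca
hsa-miR-223-5p: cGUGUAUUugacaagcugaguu

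The 12 steepest fallers followed 2 courses, a steady fall and a fall after a day 4 peak.

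**Figure D2:**
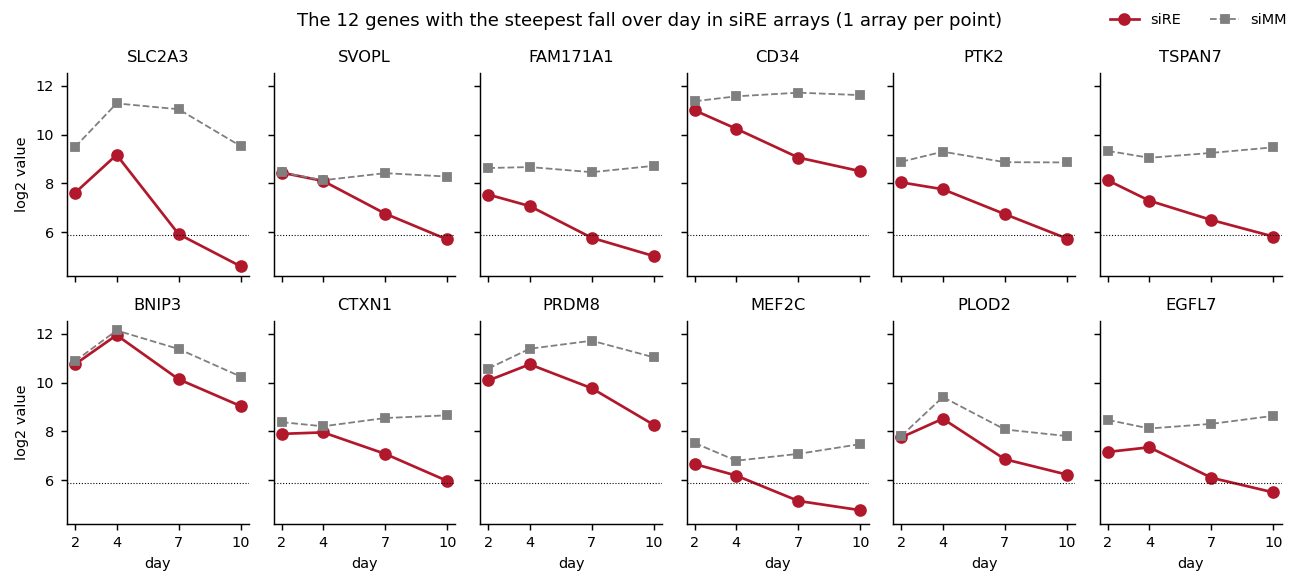
Normalized log2 values (vertical axis) by day (horizontal axis) for the 12 genes with the steepest fall in siRE: red circles are the siRE arrays, grey squares the siMM arrays, 1 array per point, and the dotted line is the background cut-off of 5.90. SVOPL, FAM171A1, CD34, PTK2, TSPAN7 and MEF2C go down at each siRE step, and the other 6 peak at day 4.

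CD34, the sialomucin that marks haematopoietic stem and progenitor cells, read 10.99, 10.24, 9.06 and 8.50 in siRE, against 11.37, 11.57, 11.72 and 11.62 in siMM, all above background. Its slope was -0.32 per day (SE 0.04, limma adjusted p = 0.000179). Of its 5 tested probes the 2 bright ones fell. The other 3 read at most 7.17 in siRE and 7.52 in siMM and did not pass.

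SVOPL read 8.44, 8.10, 6.76 and 5.70 in siRE, against 8.45, 8.13, 8.42 and 8.28 in siMM. The arms were close at days 2 and 4 and parted afterwards. FAM171A1 read 7.54, 7.07, 5.77 and 5.02 in siRE, against 8.63, 8.67, 8.46 and 8.72 in siMM, and was below the cut-off from day 7. Counted to the cut-off, SVOPL fell by 2.54 or more and FAM171A1 fell by 1.64 or more between day 2 and day 10. The slopes of SVOPL and FAM171A1 were -0.36 and -0.33 per day (limma adjusted p = 5.23e-05 and 0.000106).

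PTK2, the focal adhesion kinase, read 8.04, 7.76, 6.74 and 5.74 in siRE, against 8.89, 9.30, 8.87 and 8.86 in siMM. TSPAN7, a tetraspanin, read 8.12, 7.29, 6.50 and 5.82 in siRE, against 9.33, 9.05, 9.25 and 9.48 in siMM. MEF2C, a MADS-box transcription factor of progenitors, read 6.66, 6.19, 5.15 and 4.77 in siRE, against 7.52, 6.80, 7.08 and 7.48 in siMM. These 3 fell at every step and reached the background by day 10. Their slopes were -0.30, -0.28 and -0.25 (limma adjusted p = 0.000288, 0.000457 and 0.0018). Counted to the cut-off, PTK2 fell by 2.14 or more, TSPAN7 fell by 2.22 or more and MEF2C fell by 0.76 or more. With values set to the cut-off all 3 lost their calls (limma adjusted p between 0.3 and 0.328). With that floor on probes above it on at least 2 siRE arrays, a setting chosen after seeing the data, MEF2C lost its call (0.226) and PTK2 and TSPAN7 kept theirs.

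The 6 other steep fallers went up first, CTXN1 by only 0.06. SLC2A3, the glucose transporter GLUT3, read 7.62, 9.17, 5.92 and 4.60 in siRE, against 9.50, 11.28, 11.04 and 9.53 in siMM, and in siRE fell by 1.72 or more between day 2 and day 10, counted to the cut-off. Its probe may share sequence with the near-identical copy SLC2A14. BNIP3, a mitophagy receptor induced in low oxygen, read 10.76, 11.95, 10.14 and 9.04 in siRE, against 10.89, 12.14, 11.38 and 10.25 in siMM. Both arms went up to day 4, and the siRE arm then dropped further than siMM. PRDM8 read 10.09, 10.75, 9.77 and 8.27 in siRE, against 10.58, 11.39, 11.72 and 11.04 in siMM. PLOD2, a collagen lysyl hydroxylase, EGFL7, a secreted protein of endothelium and progenitors, and CTXN1 peaked at day 4 too. Without the day 10 array BNIP3, CTXN1, PRDM8, PLOD2 and EGFL7 lost their calls (limma adjusted p between 0.0835 and 0.71). With log2 of day as the time scale all 6 lost them (0.0576 to 0.19). SLC2A3, BNIP3 and PRDM8 also lost them under the robust prior that followed the intensity (0.0752 to 0.406), and these and PLOD2 in the fit of all 8 arrays (0.0597 to 0.118). Their course was not a line, and their steps are given further on.

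Of 15 tested stem and progenitor genes, 4 fell and 0 rose, where 1.14% of all genes fell, and the median slope was -0.10 per day. This list too was chosen with earlier results of these data known, and PTK2 is also in the adhesion and cytoskeleton list. The fourth beside CD34, PTK2 and EGFL7 was MDK, the growth factor midkine, with 7.91, 7.10, 6.61 and 6.53 in siRE, against 9.04, 8.92, 9.42 and 9.32 in siMM, and its call was lost without the day 2 array (limma adjusted p = 0.359) and after cyclic loess (0.0606). Named after their values were seen, KIT, the stem cell factor receptor, was at 11.14, 11.07, 10.85 and 10.87 and MYB at 11.59, 11.94, 11.99 and 11.42. The ranges of KIT and MYB over the 4 siRE arrays were 0.29 and 0.56, and neither passed. The RUNX1/ETO partner list gave 0 calls in 17 genes.

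The steps between neighbouring times were compared without a test, since each is 1 array against 1, and genes were counted past a change of 1 on the log2 scale. From day 2 to day 4, 117 genes rose (1.32%) and 34 fell (0.383%) in siRE, against 71 and 9 in siMM. From day 4 to day 7, 33 rose (0.372%) and 54 fell (0.609%) in siRE, against 5 and 16 in siMM. From day 7 to day 10, 46 rose (0.519%) and 112 fell (1.26%) in siRE, against 14 and 33 in siMM. At this size the most rises came at the first step and the most falls at the last. The first step spans fewer days than each later one, and the counts were not scaled for that. For falls this order depended on the setting: over the 3 steps there were 20, 29 and 20 above the cut-off on all 4 arrays, 23, 42 and 30 with values set to the cut-off, and 1, 14 and 6 past a size of 1.5. The 112 late falls were 72 after cyclic loess.

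**Figure D3:**
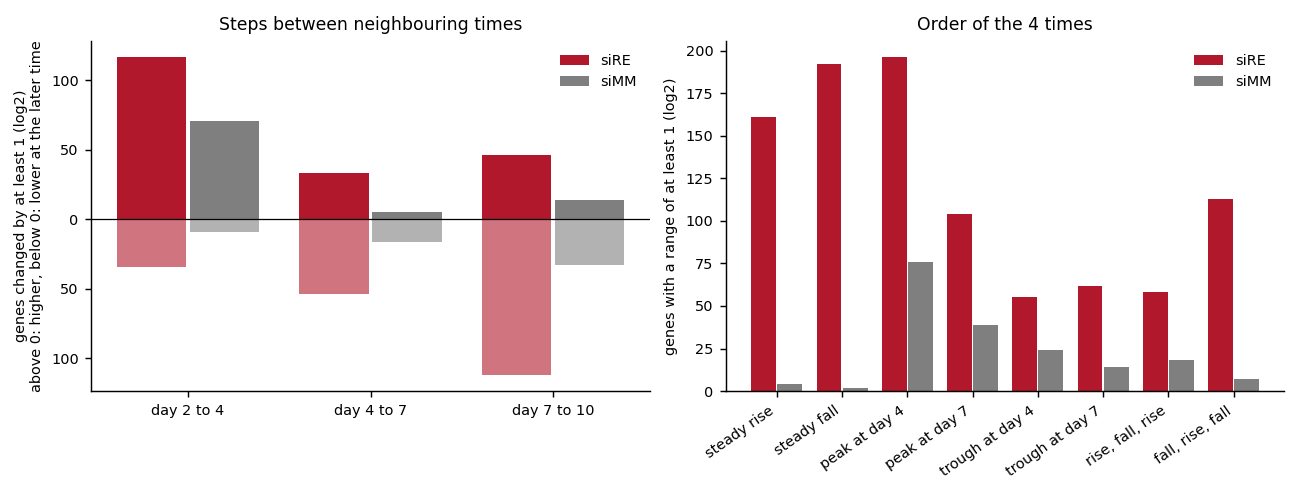
Left, number of genes (vertical axis) changed by at least 1 on the log2 scale between neighbouring times, with rises above the zero line and falls below it; right, number of genes with a range of at least 1 by the order of the 4 times. Red is siRE and grey siMM: in siRE the 161 steady rises and 192 steady falls stand against 4 and 2 in siMM, while peaks at day 4 number 196 in siRE and 76 in siMM.

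The first step was the one the arms shared most. Across the 14707 probes the step from day 2 to day 4 correlated at 0.46 between siRE and siMM, against 0.11 and 0.13 for the later steps (Pearson, probes within single arrays, not independent replicates). Of the 117 early rises, 101 had the same sign in siMM and 26 passed the same size there. The largest were BPI, ADM, CST7, PLIN2 and TXNIP. BPI and CST7 are described above. ADM, the hypoxia-induced peptide adrenomedullin, read 6.18, 8.60, 6.72 and 6.23 in siRE, against 6.04, 8.17, 7.80 and 6.12 in siMM. TXNIP, an inhibitor of thioredoxin and glucose uptake, read 9.91, 11.73, 11.83 and 11.15 in siRE, against 9.72, 11.59, 12.02 and 10.63 in siMM. These rises occurred in both arms.

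The largest early falls were PRDX1, H4C3, MCM4, TUBB2B and NUP210. PRDX1, a peroxiredoxin, read 11.93, 10.42, 10.63 and 10.64 in siRE, against 12, 11.39, 11.20 and 11.83 in siMM. H4C3, a replication-dependent histone gene with close copies, read 13.37, 12, 12.37 and 12.24 in siRE, against 13.23, 12.06, 12.63 and 13.29 in siMM. MCM4, a subunit of the replicative helicase, read 9.65, 8.33, 8.49 and 8.66 in siRE, against 9.59, 9.23, 8.94 and 9.61 in siMM. The histone gene dipped alike in both arms at day 4 and returned only in siMM.

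From day 4 to day 7 the largest rises were S100A8, FCER1G, S100A9, NKG7 and TUBB2B, and the largest falls SLC2A3, ADM, PLIN2, DDIT4 and APOBEC3G. SLC2A3 dropped by 3.25 in this interval in siRE. APOBEC3G, a cytidine deaminase that restricts retroviruses, read 6.87, 7.96, 5.99 and 6.68 in siRE, against 7.58, 8.91, 9.26 and 7.88 in siMM. At the last step CD55, RAB11B, BEX1, C19orf38 and RETN rose most, and LGALS1, EIF4E, NFKBIZ, HINFP and TUBB2B fell most. Apart from RETN and LGALS1 these genes were near or below the cut-off on 1 or both of the siRE arrays compared. LGALS1, the lectin galectin-1, read 7.39, 9.04, 8.26 and 6.51 in siRE, against 6.08, 6.72, 7.19 and 6.36 in siMM. EIF4E, the cap-binding initiation factor, was at 6.59, 6.55, 6.35 and 4.61 in siRE, with its drop at day 10 alone. Counted to the cut-off, that last step was -0.45.

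The order of the 4 times was read for genes whose range reached 1 on the log2 scale, 944 in siRE (10.6% of those tested) and 184 in siMM. Steady rises numbered 161 and steady falls 192 in siRE, against 4 and 2 in siMM. Peaks at day 4 numbered 196 in siRE and 76 in siMM, and 80 of the 196 siRE genes had the same order in siMM. Peaks at day 7 numbered 104, troughs at day 4 numbered 55 and troughs at day 7 numbered 62 in siRE, against 39, 24 and 14 in siMM. The remaining 58 and 113 siRE genes zigzagged. Of the genes that peaked at day 4, 25 passed the slope test as falling.

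**Figure D4:**
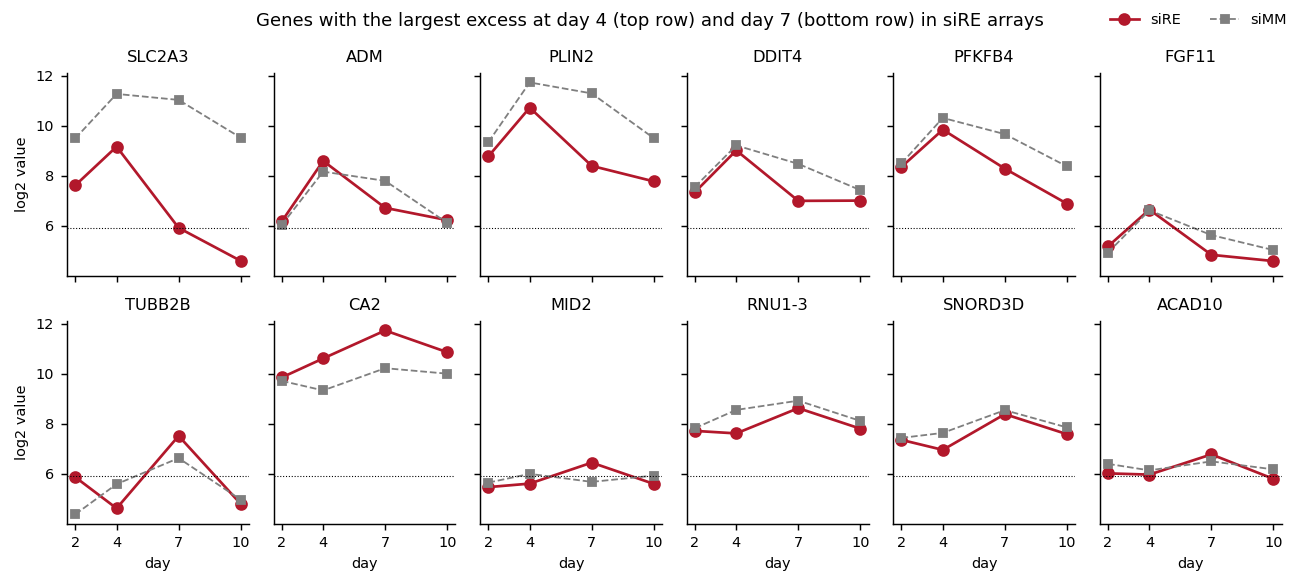
Normalized log2 values (vertical axis) by day (horizontal axis) for the 6 genes with the largest excess of day 4 over the other times in siRE (top row) and the 6 with the largest excess of day 7 (bottom row): red circles are siRE, grey squares siMM, 1 array per point, and the dotted line is the cut-off of 5.90. The day 4 peaks appear in both arms and siMM declines more slowly for SLC2A3, PLIN2 and DDIT4, while CA2 stays above 9 in both arms.

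The day 4 peak was led by genes known to respond to low oxygen. PLIN2, which coats lipid droplets, read 8.78, 10.73, 8.40 and 7.78 in siRE, against 9.35, 11.74, 11.30 and 9.51 in siMM. DDIT4, an inhibitor of mTORC1 signalling, read 7.35, 9.02, 7.0 and 7.01 in siRE, against 7.56, 9.22, 8.48 and 7.43 in siMM. PFKFB4, a regulator of glycolytic flux, read 8.36, 9.85, 8.29 and 6.89 in siRE, against 8.50, 10.32, 9.67 and 8.38 in siMM. By day 7 each of these 3 genes was below its day 2 level in siRE and above it in siMM. Of 34 tested genes of glycolysis and the hypoxia response, 33 were higher at day 4 than at day 2 in siRE and all 34 in siMM, and 33 were lower at day 7 than at day 4 in siRE and 30 in siMM. Of all 8866 genes, 4338 were higher at day 4 in siRE and 4584 in siMM, and 4451 were then lower at day 7 in siRE and 4754 in siMM. The medians of their steps were 0.63, -0.76 and -0.20 in siRE, against 0.90, -0.43 and -0.40 in siMM. Only BNIP3 and SLC2A3 passed the slope test as falling, and without the day 2 array 17 did. The day 4 arrays of both arms were taken 96 h after the last electroporation, and the others 48, 72 and 72 h after it; the part of that spacing in the peak was not tested.

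Apart from TUBB2B, with an excess of 1.65 over the highest other time, the named peaks at day 7 were smaller than those at day 4. CA2, carbonic anhydrase 2, read 9.86, 10.62, 11.74 and 10.87 in siRE, against 9.72, 9.34, 10.23 and 10.01 in siMM. RNU1-3 and SNORD3D, small RNA genes with many near-identical copies, peaked at day 7 in both arms. TUBB2B, a beta-tubulin, read 5.87, 4.62, 7.52 and 4.80 in siRE, against 4.38, 5.59, 6.63 and 4.97 in siMM, and was above the cut-off only at day 7. Day 4 troughs were led by KIF18A, NRDE2, NUP98, NLGN4X, FAM133B and EPG5, and day 7 troughs by APOBEC3G, DEPDC5, LRTM2, SLC2A11, CELF1 and GPR84. Of these 12 genes, 9 were below the cut-off at their trough, and no dip has a replicate check.

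Most cell cycle genes were lower at day 4 than at day 2. Over all 8866 genes, 4519 were lower at day 4 in siRE and 4275 in siMM, and 4919 had a siRE slope below 0. Of 44 tested G1/S and replication genes, 43 were lower at day 4 than at day 2 in siRE, against 34 in siMM, and the medians of the 3 steps were -0.66, -0.14 and 0.09 in siRE, against -0.17, -0.18 and 0.26 in siMM. Of 45 tested G2/M genes, 43 were lower at day 4 in siRE, against 35 in siMM, with medians of -0.64, -0.08 and -0.11 in siRE, against -0.20, -0.19 and 0.13 in siMM. Every one of the 45 G2/M slopes was below 0 in siRE, and cyclic loess left the median at -0.08. Only 1 of the G1/S genes passed the slope test, CCNE1 (cyclin E1), with 7.34, 6.39, 5.65 and 5.81 in siRE, against 7.33, 6.99, 6.77 and 7.37 in siMM. In the G2/M list CENPA, the centromeric histone, and HMMR fell, with slopes of -0.18 and -0.16 (limma adjusted p = 0.017 and 0.0357). CDK1, the kinase that drives mitotic entry, read 9.54, 8.69, 8.44 and 8.16 in siRE, against 9.64, 9.26, 9.17 and 9.36 in siMM, and missed the threshold (adjusted p = 0.0511). Without the day 2 array the median G1/S slope was -0.00281 per day and 0 members of either list passed, and without the day 4 array 9 G1/S and 11 G2/M genes did.

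**Figure D5:**
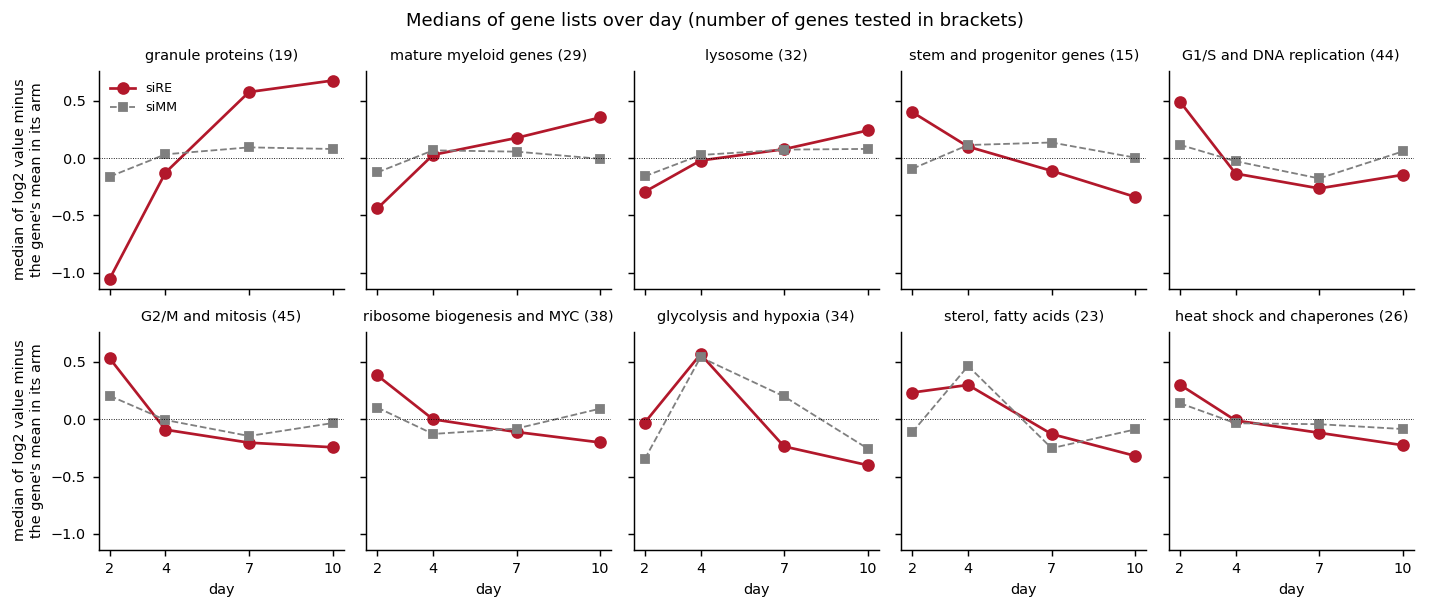
Median over the tested genes of each list (number in brackets) of the log2 value minus the gene's own mean in its arm (vertical axis), by day (horizontal axis): red circles are siRE and grey squares siMM. Granule genes climb from -1.05 to 0.68 in siRE, cell cycle and ribosome biogenesis genes drop mostly before day 4, and glycolysis and hypoxia genes peak at day 4 in both arms.

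In ribosome biogenesis, 37 of 38 slopes were below 0, where 4919 of 8866 were over all genes, and 2 members fell, PPAN and NIP7, both factors of large-subunit assembly. MYC itself, at its brightest probe, read 11.59, 11.61, 11.08 and 10.54 in siRE, against 11.35, 11.53, 11.75 and 11.42 in siMM, and did not pass (limma adjusted p = 0.0602). A second MYC probe read 11.32, 10.98, 10.70 and 9.76 in siRE, against 10.91, 11.08, 11.21 and 10.89 in siMM. That probe fell, with a slope of -0.19 per day (limma adjusted p = 0.0176). After cyclic loess 0 genes of this list fell. Of 23 sterol and fatty acid synthesis genes, 3 fell and 0 rose, where 1.14% of all genes fell: ELOVL6, a fatty acid elongase, INSIG1, which retains the sterol sensor in the endoplasmic reticulum, and MSMO1, a cholesterol synthesis enzyme. At its brightest probe MSMO1 read 8.45, 8.44, 7.74 and 7.14 in siRE, against 7.61, 9.04, 7.62 and 7.58 in siMM. That probe had a day 4 peak in siMM and none in siRE. Another MSMO1 probe that fell (limma adjusted p = 0.0331) was highest at day 4 in both arms, with 7.34, 7.63, 6.82 and 6.08 in siRE. The remaining probe read 5.58, 5.80, 6.04 and 6.53 in siRE and did not pass. Without the day 10 array all 3 genes lost their calls (limma adjusted p = 0.133 for ELOVL6, 0.578 for INSIG1 and 0.345 for MSMO1). All 26 heat shock and chaperone slopes were below 0 with a median of -0.07 and 0 calls, and 44 cytosolic ribosomal protein genes had a median slope of 0.00255.

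The change over day was then compared with that of siMM in a fit with a slope for each siRNA over all 8 arrays (4 residual and 8.58 prior degrees of freedom). The siRE slope was higher than the siMM slope for 13 probes (0.0884%) and lower for 5 (0.034%) at a limma adjusted p under 0.05, with 1436 probes at an unadjusted p under 0.05. The largest were FCER1G with 0.67 per day (SE 0.05, adjusted p = 0.000319), S100A8 with 0.55 (SE 0.06, adjusted p = 0.00116), CST7 with 0.53 (SE 0.09, adjusted p = 0.0357) and NKG7 with 0.49 (SE 0.06, adjusted p = 0.00403) among limma's positive differences. Among the negative ones they were SVOPL with -0.35 (adjusted p = 0.0126), CD34 with -0.35 (adjusted p = 0.0126), FAM171A1 with -0.33 (adjusted p = 0.0132) and TSPAN7 with -0.31 (adjusted p = 0.023).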

How the data were processed

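RNA from Kasumi-1 cells was hybridised to Illumina bead arrays, 1 array per siRNA and time. The deposited log2 values were normalized by the authors, with lumi named in the submitters' processing notes; the sources used here do not give its settings. Of the second deposited table, 16 columns were not used, since their headers match no sample label. Letters in the sample titles are not explained by the labels.

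The cut-off of 5.90 is the mode of all values (5.22) plus the 90th percentile of the distances below it. Probes above it on at least 2 of 8 arrays were tested, and the brightest tested probe stood for a gene. Of 47230 probes, 30112 had 1 gene in the platform annotation, 8 several and 17110 none. Slopes over day were fitted with limma 3.58.1 (R 4.3.3) on the 4 siRE arrays, with Benjamini-Hochberg adjustment over 14707 probes; Python 3.11.15 made the summaries. The scripts were tested on simulated data. Arrays number 4 per arm, which limits the precision.

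Members and gene lists were chosen with earlier results of these data known. The text names the 12 steepest called slopes in each direction, the 5 largest rises and falls at each step, the 6 largest peaks and troughs at days 4 and 7, up to 4 genes per list, the siRNA target and the largest slope differences. A gene outside this rule was picked after its values had been seen, as the text says beside it.

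Alternatives changed the filter, scaling, prior, time scale and step size, left out each array, or used the time point as a block. For the slope difference, both arrays of a time were left out together.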

Additional observations from a re-analysis of the deposited data

Results flagged for a closer look

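Some single siRE arrays stood far from the other 3 for a gene, measured as the gap to the nearest array over the whole range, with the 95% critical value of Dixon as the limit, which chance passes in some genes. The day 2 array was highest for PRDX1 (0.857) and lowest for NFIL3 (0.878). The day 4 array was highest for DDIT4 (0.829), and the day 7 array highest for MID2 (0.854) and lowest for DEPDC5 (0.87). The day 10 array was highest for C19orf38 (0.909), HEMGN (0.906) and ZAP70 (0.928), and lowest for EIF4E (0.879) and TCF3 (0.855). PRDX1, DDIT4, MID2, DEPDC5, C19orf38 and EIF4E were named for a large step, peak or trough, and that choice itself favours a large gap. For these genes passing the limit is no test. Since the arrays are different times, such a gap can be a change over time, and the data hold no second array to tell.

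The slope over day was higher in siRE than in siMM, by a limma test of the difference, for FCER1G (0.669 per day), S100A8 (0.545), CST7 (0.525), NKG7 (0.492), S100A9 (0.486), RETN (0.479), LYZ (0.457), C1orf162 (0.376), LITAF (0.349) and TYROBP (0.347). It was lower for SVOPL (-0.353), CD34 (-0.349), FAM171A1 (-0.331) and TSPAN7 (-0.31).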

How the results depend on the processing

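Calls on slopes depended on the filter, the time scale and single arrays, with the cause not tested unless given. Rising probes (145) became 77 with electroporations in place of day, 0 with values floored at the cut-off (297 probes were then constant and the prior fell to 1.24 degrees of freedom, and all 24 steepest genes lost their calls) and 93 with that floor on probes above it on 2 siRE arrays, a setting chosen after seeing the data. They ranged from 127 to 351 when 1 array was left out, the highest without day 4. Falling probes (150) became 59 above the cut-off on all 4 siRE arrays, 0 and 27 with the 2 floors, 81 with cyclic loess, 93 with rank, 45 with log2 of day and 98 with electroporations. They ranged from 43 (without day 10) to 439 (without day 4), with 304 without day 2 and 300 without day 7. Higher siRE-minus-siMM slopes (13) became 21 with no filter, 5 above the cut-off on all 4, 6 floored, 20 with rank, 26 with log2 of day, 3 with electroporations and 77 with the time point as replicate block. They ranged from 3 to 11 when both arrays of a time, siRE and siMM, were left out together. Lower ones (5) became 8, 2 and 0 with the same 3 filters, 3 with the added floor, 8 with a trend and robust prior, 2 with electroporations and 58 with the block. With both arrays of a time left out they ranged from 0 to 4. Deviations of same-time arrays correlated between the arms at 0.37, 0.29, 0.21 and 0.07 for days 2, 4, 7 and 10, so the times were not taken as pairs. MS4A3, BPI and SLC2A3, at limma adjusted p = 0.115, 0.243 and 0.414 for the slope difference, were at 0.0128, 0.0481 and 0.0139 with the block.

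Steps and orders depended on their size limit. With limits of 0.5 and 1.5, rises were 848 and 23, 488 and 7, and 545 and 4 over the 3 steps, and falls 853 and 1, 610 and 14, and 1036 and 6. Falls above the cut-off on all 4 arrays were 20, 29 and 20. Last-step rises were 108 with no filter, 16 above the cut-off on all 4, 26 floored and 71 with loess, and last-step falls 30 floored and 72 with loess. At 0.5 and 1.5, steady rises were 464 and 64, steady falls 599 and 29, day 4 peaks 799 and 47, day 7 peaks 587 and 16, day 4 troughs 493 and 3, day 7 troughs 579 and 3, rise-fall-rise orders 616 and 8 and fall-rise-fall orders 839 and 7. Above the cut-off on all 4 and floored, steady falls were 76 and 95, day 4 peaks 97 and 126, day 7 peaks 60 and 67, day 4 troughs 24 and 25, rise-fall-rise orders 25 and 31 and fall-rise-fall orders 43 and 56. With no filter day 4 troughs were 110, day 7 troughs 98 and rise-fall-rise orders 120. With loess the zigzag orders were 94 and 74. TUBB2B, at a slope of -0.01 per day, ranged from -0.095 to 0.38 with 1 array left out, the highest without day 10. Genes near the background have only bounds.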

Other observations

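In several lists 0 or few members passed the slope test, as 1% of all genes rose and 1.14% fell. Of 14 tested interferon-response genes 0 passed: IRF7, a regulator of type I interferon genes, read 6.02, 6.25, 6.87 and 6.89 in siRE, against 5.87, 6.32, 5.95 and 5.50 in siMM. Among 10 MHC class II and antigen presentation genes 0 passed, and HLA-DRA read 9.43, 9.89, 8.97 and 8.30 in siRE, against 9.89, 9.98, 10.62 and 9.55 in siMM (limma adjusted p = 0.0518). Of 29 genes of ER and amino acid stress 1 rose, DDIT3, the stress transcription factor CHOP, with 6.53, 7.19, 7.54 and 7.92 in siRE, against 6.75, 7.03, 6.74 and 6.52 in siMM, and its call was lost without the day 2 array and without the day 10 array (limma adjusted p = 0.217 and 0.157). Its chaperone neighbour in the list, HSPA5, read 9.28, 9.27, 10.09 and 10.02 in siRE and did not pass.

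Among 9 cytokine and chemokine genes CXCR4, the receptor that holds progenitors in the marrow, rose, with 6.98, 8.44, 8.61 and 9.03 in siRE, against 5.48, 6.40, 6.51 and 5.15 in siMM. Its slope of 0.22 per day was 0.10 without the day 2 array (limma adjusted p = 0.341), and its call was also lost in the fit of all 8 arrays (0.112). Of 31 adhesion and cytoskeleton genes 2 rose and 3 fell. ICAM3, an adhesion molecule of leukocytes, rose with 9.21, 10.70, 11.28 and 11.49 in siRE, against 8.45, 9.31, 9.25 and 8.87 in siMM. MTSS1, an actin-binding protein, fell with 6.29, 5.79, 5.56 and 4.93 in siRE, against 7.74, 7.95, 7.71 and 7.83 in siMM. In siRE MTSS1 was below the cut-off from day 4, and with values set to the cut-off its slope was -0.04 in place of -0.16 per day. Without the day 2 array ICAM3 had a slope of 0.13 in place of 0.26 per day (limma adjusted p = 0.17) and MTSS1 lost its call (0.129), and with cyclic loess MTSS1 did too (0.0881). Of 22 apoptosis genes, 24 chromatin regulators, 18 CDK inhibitor and p53 target genes, 39 mitochondrial ribosomal protein genes and 37 respiratory chain genes, 0 passed. Slopes were below 0 for 32 of the 39 mitochondrial ribosomal protein genes and 20 of the 24 chromatin regulators, where 4919 of 8866 were over all genes. Of the 37 respiratory chain genes, 32 were lower at day 4 than at day 2 in siRE and 28 in siMM. Over all 8866 genes, 4519 were lower at day 4 in siRE and 4275 in siMM. From day 7 to day 10, 30 of the 37 went up in each arm.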
